A study of Homo sapiens with 6 samples.

Results

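The genes described here encode WDR5 and the core of the SETD1/MLL complexes, the enzymes that methylate lysine 4 of histone H3 (H3K4). They are 10 genes chosen by symbol: WDR5, RBBP5, ASH2L, DPY30, MLL (now KMT2A), MLL2 (read as KMT2D), MLL3 (now KMT2C), SETD1A, SETD1B and HCFC1. All 10 were present in the data, out of 17787 gene symbols in all, each on a single row per library and at 1 FPKM or more in every library. RNA came from A549, a human lung adenocarcinoma cell line, in 6 sequencing libraries. Of these, 3 are labelled siNC, have wild type as their genotype and served as controls, and 3 carry the label siFOXD3, for a small interfering RNA against the transcription factor FOXD3. What siNC stands for is not spelled out, and nothing says whether the replicates came from separate cultures, so the p-values reflect only library-to-library spread, which could be technical. The values are FPKM, fragment counts scaled to transcript length and to the mapped fragments of the library.

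H3K4 methylation marks active promoters and enhancers. In these complexes a catalytic subunit of the MLL or SETD1 type carries the SET domain, which transfers the methyl group and is weakly active alone. WDR5, RBBP5, ASH2L and DPY30 form a module shared by all of these enzymes that raises their activity, with WDR5 binding a short arginine-containing motif of the catalytic subunit. SETD1A and SETD1B are best known for trimethylation at promoters, MLL for keeping HOX genes active, and MLL2 and MLL3 for monomethylation at enhancers. HCFC1 is a chromatin scaffold found with the SETD1 complexes and the MLL complex.

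The series title names WDR5 as a gene repressed by FOXD3, so the start of WDR5 is shown first. RefSeq promoter windows on GRCh38.p14, running from 250 bases before to 50 bases after a gene start, were matched by symbol for 6 of the 10 genes (WDR5, RBBP5, MLL, MLL2, MLL3 and SETD1A), 9 windows in all, of which 4 belong to alternative starts of WDR5. The forkhead core TGTTTAC and the related TGTTTGT, searched on both strands, occurred in 0 of the 9 windows, against 3.42% and 5.23% of the 35116 windows in the table. The shorter TGTTT, which is part of both and was added after that search, occurred in the most upstream WDR5 window and in the RBBP5 window, and in 44.4% of all windows. The E-box CACGTG, a motif bound by MYC and also added later, occurred in 1 WDR5 window and in the MLL2 window, and in 7.26% of all windows. The stretches with these matches are printed below, 5′ to 3′ on the strand of the gene, with the matched letters in capitals.
WDR5, the 250 bases before the most upstream start, chr9:134134949-134135198, plus strand: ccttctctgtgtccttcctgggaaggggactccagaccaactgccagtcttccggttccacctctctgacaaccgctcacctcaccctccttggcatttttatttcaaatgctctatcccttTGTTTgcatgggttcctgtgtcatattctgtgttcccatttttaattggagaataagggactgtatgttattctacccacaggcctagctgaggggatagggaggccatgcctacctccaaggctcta
RBBP5, chr1:205122094-205122123, minus strand: atcataattaatTGTTTccgagagagtgta
WDR5, before a downstream start, chr9:134136273-134136302, plus strand: acccggccgccgCACGTGttccccgccggg
MLL2, chr12:49060898-49060927, minus strand: gggcttcgttccCACGTGtctgccctgctg
The windows of these genes had a median of 65.0% G and C and 30 CpG dinucleotides, against 58.7% and 14 over all windows, with the most upstream WDR5 window at 51.3% and 6 and the MLL3 window at 88.7% and 56. A match describes the letters only.

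FOXD3, the targeted gene, was near the detection limit: the siNC libraries held 0.152, 0.291 and 0.134 FPKM, and of the siFOXD3 libraries only replicate 2 listed the gene, with 0.0749 FPKM. The files do not state their depth. An estimate from the spacing of low values was 7490000 to 8770000 fragments a library. It is rough, since only 40.5% to 51.0% of the low values lay close to a whole number of fragments at these depths. Each depth was itself chosen to bring low values near whole numbers, and a good part would lie that close at any depth. At this estimate FOXD3 amounts to 4 fragments or fewer in any library, and the 10 genes to between 226 (SETD1A) and 2408 (MLL2), for a counting error of 6.65% to 2.04%. The epithelial markers KRT8, KRT18, EPCAM and CDH1 summed to 4059 to 4756 FPKM in siNC and 6033 to 6113 FPKM in siFOXD3. Over all genes tested, 27.2% were called higher and 38.7% lower, at a Benjamini-Hochberg adjusted p under 0.05 in limma. The marker counts here were not tested against that background. KRT8, KRT18 and EPCAM rose and CDH1 fell (-0.21), a call lost with median-of-ratios scaling. The 6 markers of A549 summed to 2006 to 2108 FPKM in siNC and 2855 to 2930 FPKM in siFOXD3, and 5 of them rose, ALDH1A1 from 31.7 ± 2.31 to 98.1 ± 6.93 FPKM (SD, n = 3) and AKR1B10 from 391 ± 4.46 to 753 ± 14.3 FPKM. The extraction protocol in the labels speaks of retinas. Of 12 photoreceptor markers 1 reached 1 FPKM in any library, the list summed to 1.68 to 2.17 FPKM in siNC and 2.51 to 3.52 FPKM in siFOXD3, and SAG, GNAT1, RCVRN and OPN1SW were listed in no library. Of 8 leukocyte markers 3 reached 1 FPKM, with sums of 74.5 to 84.8 FPKM in siNC and 67.4 to 68.5 FPKM in siFOXD3, of which CD68 made up most, and TYROBP was listed in no library. All 3 were called lower: LAPTM5 fell from 2.06 ± 0.241 to 0.210 ± 0.0691 FPKM (-1.34), CD14 from 2.92 ± 0.613 to 1.246 ± 0.304 FPKM (-0.80) and CD68 by 0.16, the last a call lost in 5 of 14 alternatives. Only genes at 1 FPKM or more in at least 3 libraries were tested, and LAPTM5 met this through its siNC libraries alone. PTPRC, which marks all leukocytes, was at 0.309 FPKM or less in every library. The part of these markers in the results below was not tested. In bulk RNA, fewer cells of a type and less RNA per cell cannot be told apart.

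Of the 10 genes, 6 rose in siFOXD3 (WDR5, HCFC1, SETD1B, SETD1A, MLL2 and RBBP5), 1 fell (ASH2L) and 3 were not called (DPY30, MLL and MLL3). Calls are at an adjusted p under 0.05 in limma with Benjamini-Hochberg adjustment over the 12555 genes tested, and all changes below are on the log2(FPKM + 1) scale. The contrast was broad: 65.9% of all genes tested were called, 27.2% higher and 38.7% lower, and the groups did not overlap for 70.7% of genes, so 7 called genes of 10, and 7 of 10 without overlap, are close to the background in number. The median log2 fold change of the 10 genes was 0.24, against -0.08 for all genes tested, and 0.17 for the 8 genes other than WDR5 and HCFC1. The median of all genes was 0.00 with median-of-ratios scaling and 0.03 with quantile normalization, and relative to the median of all genes the median of the 10 lay 0.31 higher as deposited, 0.32 with median-of-ratios scaling and 0.28 with quantile normalization.

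**Figure D1:**
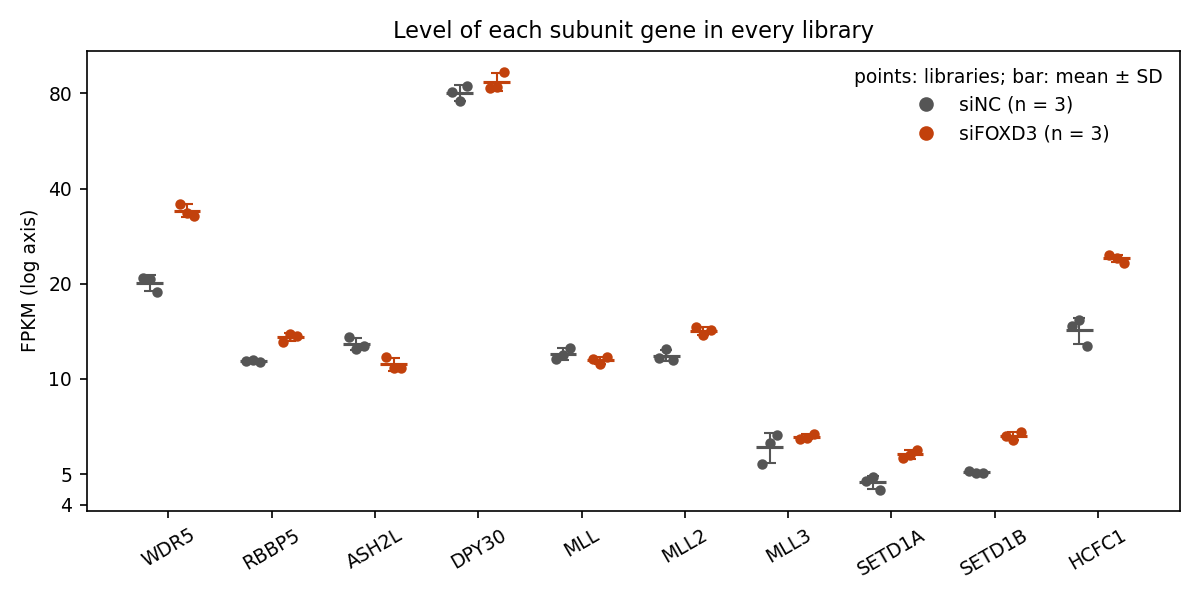
FPKM (log axis) of the 10 genes in the 3 siNC libraries (grey) and the 3 siFOXD3 libraries (orange), with points for libraries and bars for the mean ± SD. WDR5 (20.1 to 34.0) and HCFC1 (14.3 to 24.05) show the widest separation between groups, DPY30 is the most abundant in both groups, and DPY30, MLL and MLL3 overlap between groups.

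The shared module changed unevenly. WDR5, a WD40-repeat protein that holds the catalytic subunit and also reads histone H3, stood at 20.9, 20.6 and 18.8 FPKM in siNC and at 35.9, 33.5 and 32.8 FPKM in siFOXD3. Every siFOXD3 library lay well above every siNC library. The ratio of means was 1.69, and the log2 fold change of 0.73 (95% interval 0.59 to 0.87) was exceeded by 5.3% of all genes tested. RBBP5, a second WD40-repeat subunit that contacts the SET domain together with ASH2L, was at 11.4, 11.5 and 11.3 FPKM in siNC and 13.1, 13.9 and 13.6 FPKM in siFOXD3. Its groups did not overlap either, but the rise was smaller, at 0.23 ± 0.06 on the log2 scale (SE, limma, adjusted p = 0.00808), and 25.5% of all genes had a larger value.

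ASH2L, the subunit that completes the active site contact with RBBP5 and anchors DPY30, went the other way. It was at 13.5, 12.4 and 12.7 FPKM in siNC and at 11.7, 10.8 and 10.8 FPKM in siFOXD3, so that each siFOXD3 value lay below each siNC value. It fell by 0.20 on the log2 scale (limma, adjusted p = 0.026), 0.12 below the median of all genes. The call was lost with median-of-ratios scaling (-0.12, limma, adjusted p = 0.162) and quantile normalization (-0.13, adjusted p = 0.135), and without siNC replicate 1 (adjusted p = 0.0555), siFOXD3 replicate 2 (0.0851) or siFOXD3 replicate 3 (0.0852). RefSeq lists pseudogenes of ASH2L, which can share its reads and make its level uncertain.

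DPY30, a small dimeric protein docked on ASH2L, was the most abundant of the 10 genes, at 80.6, 75.5 and 84.7 FPKM in siNC and 83.4, 84.0 and 93.7 FPKM in siFOXD3. The groups overlapped, with siNC replicate 3 above 2 of the siFOXD3 libraries. Its log2 fold change of 0.11 (95% interval -0.02 to 0.25, limma, adjusted p = 0.126) was not called as deposited, and it was called higher with median-of-ratios scaling (0.20, adjusted p = 0.0163) but not with quantile normalization (0.05, adjusted p = 0.472).

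Because FPKM is scaled by transcript length, the levels of these subunits can be set side by side within a library. WDR5 amounted to 1.83, 1.80 and 1.67 times RBBP5 in siNC and to 2.74, 2.41 and 2.40 times in siFOXD3. Relative to ASH2L the ratio was 1.545, 1.66 and 1.48 in siNC and 3.06, 3.10 and 3.03 in siFOXD3, and relative to DPY30 it was 0.259, 0.273 and 0.222 in siNC and 0.430, 0.399 and 0.349 in siFOXD3. For each of the 3 ratios the groups did not overlap, and the mean ratio was 1.43 (RBBP5), 1.96 (ASH2L) and 1.56 (DPY30) times as high in siFOXD3. The ratios share WDR5 as numerator, whose own groups did not overlap, so they are not 3 separate results. Of single genes tested, 70.7% did not overlap, and the share for ratios was not computed. An exact permutation test, two-sided, returned p = 0.1 for each ratio, also after Benjamini-Hochberg adjustment over the 3 ratios. This is the smallest that 3 libraries against 3 allow. WDR5 made up 16.2% ± 1.26 (SD, n = 3) of the summed FPKM of the 4 subunits in siNC and 23.4% ± 1.60 in siFOXD3, while the sum went from 125 ± 4.002 to 146 ± 4.61 FPKM.

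**Figure D2:**
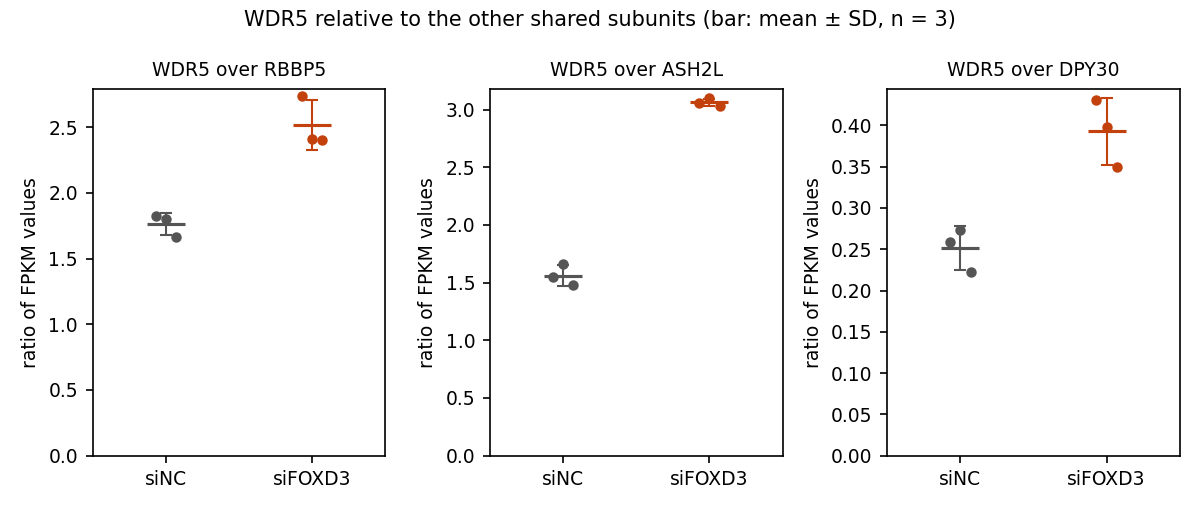
Ratio of the FPKM of WDR5 to that of RBBP5, ASH2L and DPY30 in each library, with points for libraries and bars for the mean ± SD (n = 3 per group). All 3 ratios are higher in each siFOXD3 library than in any siNC library, and the ratio to ASH2L goes from 1.56 to 3.06 on average.

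WDR5B, an intronless paralog of WDR5 outside the 10 genes, changed in the opposite direction. It was at 3.46, 4.71 and 4.40 FPKM in siNC and at 2.45, 2.11 and 2.78 FPKM in siFOXD3, with no overlap, and fell by 0.59 on the log2 scale (limma, adjusted p = 0.00161), by 0.52 with median-of-ratios scaling and by 0.33 with quantile normalization. WDR5 thereby went from 82.7% ± 2.64 (SD, n = 3) to 93.3% ± 0.993 of the summed FPKM of both genes.

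Among the catalytic subunits, both SETD1 genes and MLL2 rose. SETD1B was at 5.12, 5.03 and 5.02 FPKM in siNC and at 6.60, 6.42 and 6.80 FPKM in siFOXD3, and SETD1A was at 4.76, 4.91 and 4.45 FPKM in siNC and at 5.61, 5.74 and 5.97 FPKM in siFOXD3. In neither did the groups overlap. The log2 fold change was 0.33 ± 0.08 for SETD1B (SE, limma, adjusted p = 0.00315) and 0.25 ± 0.08 for SETD1A (adjusted p = 0.0195). Quantile normalization gave 0.52 and 0.45, and a pseudocount of 5 gave 0.21 and 0.15. The SETD1A call was lost without siNC replicate 3 (adjusted p = 0.0638) or without siFOXD3 replicate 3 (adjusted p = 0.0698).

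MLL2, the large enhancer methyltransferase mutated in Kabuki syndrome, was at 11.6, 12.4 and 11.5 FPKM in siNC and 14.6, 13.7 and 14.2 FPKM in siFOXD3, with no overlap and a log2 fold change of 0.24 ± 0.06 (SE, limma, adjusted p = 0.00736). The symbol MLL2 has been used for both KMT2D and KMT2B, and the files also hold MLL4, taken here as KMT2B. MLL4 was at 7.001, 6.62 and 6.84 FPKM in siNC and 8.52, 7.37 and 7.41 FPKM in siFOXD3, without overlap, and was not called as deposited (0.16, limma, adjusted p = 0.0984) but called higher with median-of-ratios scaling (0.24, adjusted p = 0.0215) and quantile normalization (0.31, adjusted p = 0.00674).

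MLL, the founding member of the family and a frequent fusion partner in leukaemia, was at 11.5, 11.9 and 12.5 FPKM in siNC and 11.6, 11.1 and 11.7 FPKM in siFOXD3, and these values overlapped. Its log2 fold change of -0.06 (95% interval -0.21 to 0.09, limma, adjusted p = 0.437) was within the spread between libraries, and it was 0.02 with median-of-ratios scaling and 0.01 with quantile normalization. MLL3, the partner enzyme of MLL2 at enhancers, was at 5.36, 6.29 and 6.62 FPKM in siNC and 6.47, 6.51 and 6.71 FPKM in siFOXD3. The siFOXD3 values lay close together, and siNC replicate 1 was the lowest of the 6. The log2 fold change was 0.10 (95% interval -0.10 to 0.29, limma, adjusted p = 0.352), 0.02 without siNC replicate 1 and 0.27 with quantile normalization, where it was called higher (adjusted p = 0.0169).

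Transcript length moved with siNC replicate 1. Over the 909 tested genes with a transcript of 8 kb or more, its median deviation from the other siNC libraries was -0.09 on the log2 scale, against 0.05 for the 2421 genes under 2 kb. The deviation was -0.23 for MLL3, -0.08 for MLL, -0.03 for MLL2, 0.02 for SETD1B and 0.07 for HCFC1. Its part in the MLL3 result was not tested. RefSeq lists several partial pseudogenes of MLL3 that can share its reads. Summed FPKM of SETD1A and SETD1B went from 9.76 ± 0.252 in siNC to 12.4 ± 0.340 in siFOXD3 (SD, n = 3 each), a ratio of 1.27, and that of MLL, MLL2 and MLL3 from 29.9 ± 1.21 to 32.2 ± 0.721, a ratio of 1.08.

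HCFC1, the scaffold that links these complexes to transcription factors, was at 14.7, 15.3 and 12.7 FPKM in siNC and at 24.7, 24.1 and 23.3 FPKM in siFOXD3. The groups were far apart, and siNC replicate 3 was the lowest library. Its log2 fold change of 0.72 (95% interval 0.55 to 0.89) was nearly that of WDR5, and 5.6% of all genes tested had a larger value. Over the 14 alternative settings run the value stayed between 0.60 and 0.80 for HCFC1 and between 0.64 and 0.82 for WDR5, and both were called in all 14.

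**Figure D3:**
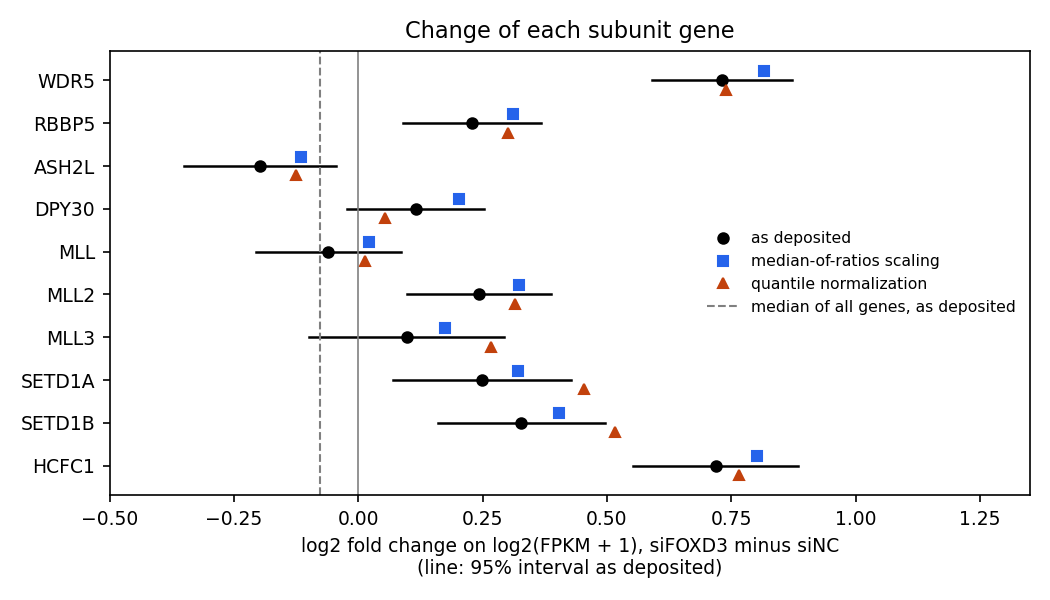
Log2 fold change of siFOXD3 over siNC on the log2(FPKM + 1) scale for each of the 10 genes, with circles and 95% intervals for the values as deposited, squares for median-of-ratios scaling and triangles for quantile normalization. WDR5 and HCFC1 stand apart at 0.73 and 0.72, ASH2L is lowest at -0.20, and MLL changes sign with the scaling.

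The order of levels moved with these changes. In siNC the means ran from DPY30 (80.3 FPKM) over WDR5 (20.1), HCFC1 (14.3), ASH2L (12.9), MLL (12), MLL2 (11.8), RBBP5 (11.4), MLL3 (6.09) and SETD1B (5.06) to SETD1A (4.71). The ranges over libraries of HCFC1 and ASH2L overlapped, as did those of ASH2L and MLL and of MLL and MLL2, so these neighbours did not differ beyond their spread. In siFOXD3 the order was DPY30 (87.05 FPKM), WDR5 (34.0), HCFC1 (24.05), MLL2 (14.2), RBBP5 (13.5), MLL (11.5), ASH2L (11.1), SETD1B (6.61), MLL3 (6.56) and SETD1A (5.77), with overlap between MLL2 and RBBP5, MLL and ASH2L, and SETD1B and MLL3. ASH2L thus passed from above RBBP5 to below it, with no overlap between these genes in either group.

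Profiles over the 6 libraries were compared with that of WDR5 by the root mean square difference of centred log2 values. Noncoding and unnamed loci, such as LOC and orf symbols, were left out. Of the genes kept, the nearest were BRMS1 (0.027), a subunit of a histone deacetylase complex, and EWSR1 (0.035), an RNA-binding protein. XRCC2 (0.039), a DNA recombination protein, TAX1BP3 (0.040), a PDZ-domain protein, and HCFC1 (0.041) followed. BRMS1 went from 37.8 ± 2.43 to 63.55 ± 1.05 FPKM and EWSR1 from 90.1 ± 3.81 to 145 ± 4.54 FPKM (SD, n = 3). Such likeness is common here, since 383 of the genes kept lay within 0.1 of WDR5.

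The list counts that follow stand against 27.2% of all genes tested called higher, 38.7% called lower and 65.9% called in either direction, and none was tested against that background. Of 11 other subunits found in only some of these complexes, HCFC1 left out, 3 rose and 1 fell, leaving 7 not called, around a median log2 fold change of 0.05. PAXIP1, a BRCT-domain subunit of the MLL2 and MLL3 complexes, rose from 5.71 ± 0.733 to 7.73 ± 0.367 FPKM (0.39), and C16orf53 (now PAGR1), which binds PAXIP1, rose by 0.71. BOD1, reported with the SETD1B complex and also acting in chromosome orientation, fell from 34.4 ± 0.803 to 23.8 ± 0.737 FPKM (-0.51). Over all 12 such genes, HCFC1 included, 4 were called higher as deposited and 7 with quantile normalization, and 2 were called lower without siNC replicate 1.

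Of 6 other methyltransferases reported to act on H3K4, 4 rose, 1 fell and 1 was not called; the median was 0.21. SETMAR, a SET-domain protein fused to a transposase, rose by 0.465 from 1.51 ± 0.0840 to 2.475 ± 0.342 FPKM, and ASH1L (0.29), SETD7 (0.215) and SMYD2 (0.20) rose less. SMYD3 fell by 0.23, and MLL5 had means of 14.9 ± 1.67 and 14.1 ± 0.368 FPKM, with overlapping groups. Without siFOXD3 replicate 1, or without replicate 3, 2 of these were called higher, and with median-of-ratios scaling SMYD3 was not called (adjusted p = 0.0523).

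Of 7 enzymes that remove or are reported to remove H3K4 methylation, 4 fell, 2 rose and 1 was not called; the median was -0.21. KDM5B, a demethylase of trimethylated H3K4, was at 30.1, 28.7 and 30.5 FPKM in siNC and at 20.3, 20.03 and 21.1 FPKM in siFOXD3 and fell by 0.52 (limma, adjusted p = 1.87e-05). KDM1B, a flavin-dependent demethylase, fell by 0.31, KDM5C by 0.22 and KDM5A by 0.21, a call lost in 7 of the 14 alternatives. The number called lower was 4 as deposited, 2 with median-of-ratios scaling and 1, KDM5B, with quantile normalization. KDM1A (LSD1), the first histone demethylase described, rose from 53.4 ± 4.02 to 65.5 ± 0.805 FPKM (0.29). C14orf169 (now RIOX1), a nucleolar oxygenase that also hydroxylates a ribosomal protein, had the largest value of the list, at 4.35, 4.26 and 3.90 FPKM in siNC and 11.4, 10.8 and 9.94 FPKM in siFOXD3, and rose by 1.18 (limma, adjusted p = 1.01e-06). KDM2B was at 7.61 ± 0.442 and 7.69 ± 0.241 FPKM.

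Of 16 proteins that bind methylated H3K4 or act with such readers, 4 rose and 6 fell, leaving 6 not called, around a median of -0.02. ING4, a PHD-finger subunit of an acetyltransferase complex, fell from 28.2 ± 2.48 to 14.7 ± 0.699 FPKM (-0.89), and CCDC101 (now SGF29), a Tudor-domain reader, fell by 0.43. TAF3, the TFIID subunit that binds trimethylated H3K4, rose from 1.37 ± 0.474 to 2.71 ± 0.549 FPKM (0.66), and the chromodomain remodeller CHD1 rose by 0.46. With either scaling alternative 3 readers were called lower, and so they were without siNC replicate 2.

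HOX genes are the classic targets of MLL, and their TALE cofactors were put in the same list without being taken as targets. Of 45 listed, 38 were in the files and 21 passed the filter on low values, of which 5 rose and 5 fell, leaving 11 not called, around a median of -0.06, near that of all genes. HOXB9 was at 2.07, 2.67 and 2.26 FPKM in siNC and at 0.466, 0.351 and 0.623 FPKM in siFOXD3 (-1.17), and HOXB3 fell from 5.62 ± 0.495 to 2.42 ± 0.356 FPKM (-0.96). HOXB9 passed the filter of 1 FPKM through its siNC libraries alone, the group where it was high. Of the cofactors, MEIS3 fell from 18.7 ± 0.706 to 7.91 ± 0.799 FPKM (-1.15) and PBX2 from 42.7 ± 1.11 to 26.4 ± 0.480 FPKM (-0.67). Quantile normalization called 9 higher and 4 lower, and the fit with the replicate number as a block called 3 higher. Leaving out siFOXD3 replicate 2 left 3 called higher, and leaving out siNC replicate 1 left 3 called lower. With no filter on low values 3 were called higher and 8 lower, and with a filter of 5 FPKM 2 and 3. MYC, a transcription factor that WDR5 helps to place on chromatin, rose from 46.7 ± 1.01 to 54.8 ± 2.11 FPKM (0.23, limma, adjusted p = 0.00263).

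**Figure D4:**
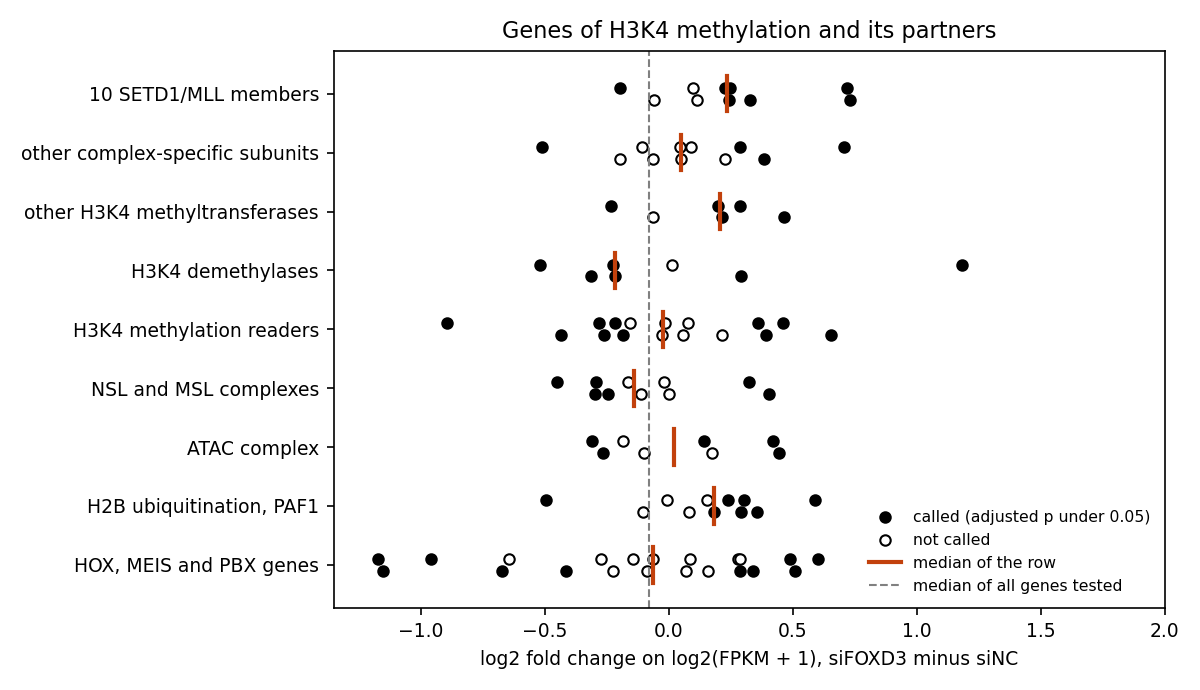
Log2 fold change of siFOXD3 over siNC on the log2(FPKM + 1) scale for the tested genes of each row. Rows hold the 10 SETD1/MLL genes, other complex-specific subunits, other H3K4 methyltransferases, demethylases, readers, NSL and MSL, ATAC, H2B ubiquitination and PAF1, and HOX, MEIS and PBX genes. MLL4 and WDR5B are not shown. Filled points are called genes, open points genes not called, orange bars the median of a row and the dashed line the median of all genes tested (-0.08). The 10 SETD1/MLL genes have a median of 0.24 and the demethylases one of -0.21, with C14orf169 at 1.18.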

How the data were processed

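RNA of A549 cells was profiled in 3 siNC and 3 siFOXD3 libraries, grouped by sample title. Per the file headers, the authors deposited 1 FPKM value per row and symbol, made with TopHat and Cufflinks on hg19, per the submitters' processing notes; for versions, annotation, read length and strand, the answer is not given in the sources used here. Rows of 1 symbol were summed and an absent symbol was set to 0. Genes with 1 FPKM or more in at least 3 libraries (12555) were tested two-sided by limma 3.58.1 (R 4.3.3, eBayes with trend and robust) on log2(FPKM + 1), with no term besides the group, and the fit was tested on simulated data. Ratios were compared with exact permutation tests. Python 3.11.15, pandas 2.3.3, numpy 2.4.6, scipy 1.17.1 and matplotlib 3.10.9 were used otherwise. Depth was estimated from the spacing of low FPKM in 985 genes that have 1 GENCODE 29 transcript of 700 to 4000 bases and an assumed fragment length of 150 bases; fragments per gene rest on its longest coding transcript, and counting errors cover counting error only. Transcript lengths were found for 89.2% of the genes tested. GENCODE 29 and the RefSeq tables are on another build than hg19, so the only coordinates given are those of RefSeq promoter windows.

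The genes and lists were chosen with earlier results of these data known. Named were the 10 genes, FOXD3, MYC and, leaving out noncoding and unnamed loci, the 5 genes nearest to WDR5. From each list up to 4 called genes without overlap and with the largest change were named, or any gene in lists of at most 8. For lists with fewer than 2 such genes, the 2 most abundant tested were named. The markers named beside list sums were listed with them. Alternatives were other pseudocounts (0.1, 5), other filters (none, 5 FPKM), median-of-ratios scaling, quantile normalization, limma without trend and robust, a replicate block, and leaving out each library in turn. Squared differences between libraries of a group had a median of 1.45 to 3.23 times that of counting noise at the estimated depth. No pair was therefore merged as a library deposited more than once, but repeat preparations of 1 culture could differ as much.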

Additional observations from a re-analysis of the deposited data

How the results depend on the processing

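Over the 14 alternatives, 129 of 140 values of the 10 genes kept their direction and their side of the threshold. The number of the 10 genes called higher was 5 to 6 with 1 library left out and 6 or 7 otherwise. The number called lower was 1, the ASH2L call, and it was 0 with median-of-ratios scaling and 0 with quantile normalization, and 0 to 1 with 1 library left out. The log2 fold change of MLL turned from -0.060 to 0.021 with median-of-ratios scaling and to 0.014 with quantile normalization. Relative to the median of all genes, MLL was at 0.018 as deposited, 0.023 with median-of-ratios scaling and -0.012 with quantile normalization. The cause was not tested. The log2 difference in the ratio of WDR5 to RBBP5, ASH2L and DPY30 stayed positive with quantile normalization and without any 1 library. Median-of-ratios scaling cannot test these ratios, since it divides all genes of a library by the same factor, which cancels. The lower genes' share of all calls was 58.7% as deposited; median-of-ratios scaling made it 50.1%, from 4154 lower and 4140 higher calls, and quantile normalization 47.4%, from 3835 and 4255. In the lists, 5 catalytic genes were called higher with quantile normalization against 3 as deposited. Same-numbered libraries deviated together with correlations of 0.061, 0.163 and 0.115 over genes, each the highest for its libraries, as a hint from the data only, since the labels do not say that a number marks a shared batch. With the replicate number as a block, 6 of the 10 genes were called higher and 1 lower, and 3354 genes in all were called higher and 4818 lower. Depth limits FOXD3 most among the genes whose fragments were estimated, at 4 fragments or fewer, and then WDR5B, with a counting error of 8.89% to 13.2%.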

Other observations

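WDR5 also belongs to the NSL and ATAC acetyltransferase complexes, and their other genes moved both ways, against 27.2% of all genes called higher and 38.7% lower. WDR5 (0.73) and HCFC1 (0.72), counted among the 10 genes above, were left out of the lists and medians given here. The list for the H4 acetyltransferase KAT8 joined NSL genes with those of the MSL complex, which shares KAT8 but not WDR5. Of its 10 tested genes 2 rose and 4 fell, leaving 4 not called, around a median log2 fold change of -0.14, and the risers and 3 of those that fell were NSL genes. The NSL subunits KANSL2 (9.67 ± 0.669 to 13.1 ± 0.346 FPKM, SD, n = 3, 0.41) and MCRS1 (28.7 ± 1.17 to 36.2 ± 1.49 FPKM, 0.325) rose, while PHF20 (14.6 ± 0.943 to 10.4 ± 0.378 FPKM, -0.45) and, of the MSL complex, its scaffold MSL1 (-0.30) fell. Of 8 tested genes of the ATAC complex, 3 rose and 2 fell, leaving 3 not called, around a median of 0.02. Its H3 acetyltransferase KAT2A rose from 11.7 ± 0.466 to 16.05 ± 0.528 FPKM (0.42) and ZZZ3 rose by 0.44, and CSRP2BP (-0.31) and TADA3 (-0.26) fell. The calls of these 8 named genes did not change in any of the 14 alternatives. The third ATAC gene called higher was DR1 (0.14, limma, Benjamini-Hochberg adjusted p = 0.0395), named after its values were seen, whose call was lost in 7 of the 14: limma without trend and robust, the replicate block, and leaving out siNC replicate 1 or 3 or any 1 siFOXD3 library.

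Ubiquitination of histone H2B and the PAF1 elongation complex act ahead of H3K4 methylation by the SETD1 enzymes. Of 11 tested genes, 6 rose and 1 fell, leaving 4 not called, around a median of 0.18. Over all genes tested 27.2% were called higher and 38.7% lower. The 7 called genes of 11 are close to the 65.9% called over all genes in number. RNF40, a subunit of the H2B ubiquitin ligase, was at 9.54, 7.87 and 7.79 FPKM in siNC and at 13.4, 13.2 and 12.7 FPKM in siFOXD3 (0.59, limma, Benjamini-Hochberg adjusted p = 0.000134). The paired ubiquitin-conjugating enzymes UBE2A and UBE2B moved apart, UBE2A from 61.4 ± 5.52 to 78.7 ± 2.21 FPKM (0.36) and UBE2B from 27.2 ± 1.67 to 19.0 ± 0.401 FPKM (-0.49). Neither overlapped between groups, as held for 70.7% of all genes tested. LEO1, a PAF1 complex subunit, rose by 0.30.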
